A study of Danio rerio with 15 samples.

Results

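Keratins are the intermediate filament proteins of epithelial cells. Each filament pairs a type I keratin with a type II keratin, and the filaments, tied to desmosomes and hemidesmosomes, give the skin its resistance to stretch. The skin of a zebrafish larva is thin, with a surface layer (the periderm, which descends from the enveloping layer of the early embryo) above a basal layer, and each layer makes its own keratins in large amounts. Keratins krt8 and krt18 form the pair of simple epithelia, which also line internal organs.

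The 24 genes described here are those of the authors' deposited table for DMSO and TCPMOH whose symbol starts with krt, with krtcap2 left out because it names a keratinocyte-associated protein, together with cyt1, cyt1l and icn. They were taken from 32337 genes with a base mean above 0, out of 36351 in the table. Every symbol had 1 entry, and 0 candidate entries had a base mean of 0. The label of a keratin family holds for 23 of the 24. The remaining gene, icn, is named ictacalcin in the authors' deposited table, a small calcium-binding protein of the S100 family that is made in fish epithelia and forms no filaments, so counts are also given without it. No sequences of these genes were at hand, and none is shown.

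Whole wild-type AB strain zebrafish were exposed in the water from 96 to 100 hours post fertilization (hpf), for 4 hours, and pooled at the end of the exposure. The groups were 50 nM tris(4-chlorophenyl)methanol (TCPMOH), 50 nM tris(4-chlorophenyl)methane (TCPM) and the solvent dimethyl sulfoxide alone (DMSO, 0.01% v/v), with 5 pools of 8 to 10 embryos each, and pools came from 3 experiments that the labels do not assign to them. TCPMOH carries a hydroxyl group on the central carbon of TCPM. The table compares TCPMOH with DMSO only, so TCPM pools were not analysed here and the compounds are not compared. It gives 1 base mean (the mean of normalized read counts over the libraries), 1 log2 fold change with its standard error (SE) and 1 Wald p-value per gene, and no value per pool, so levels in single pools, overlap of the groups and the depth of each library are unknown here. Some pools of a group would share an experiment, so the p-values may rest partly on spread within experiments. Whether experiments were balanced between the groups, or were part of the authors' model, is unknown here. In whole animals, fewer cells of a type and less RNA per cell cannot be told apart.

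The header leaves the numerator of the fold change unnamed, and the comparison carries the name of DMSO before that of TCPMOH. A negative value is read here as lower with TCPMOH, that is, with DMSO as the denominator. That is an assumption. The order of the names also allows DMSO as the numerator, and the choice was not tested. Under the other reading every direction below would be reversed together, and sizes and p-values would stay as they are.

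Keratin reads were abundant and their fold changes were small, mostly negative and nearly all short of the threshold. Of the 24 genes, 23 had an adjusted p, which the table gives only where the base mean reaches 49.1, and krt98 had none. In the DESeq2 Wald test of the authors 1 of the 23 was called changed at a Benjamini-Hochberg adjusted p under 0.05, namely krt15, as lower, and 0 were called higher. Over all 19257 tested genes 2.68% were called, 1.92% as lower and 0.758% as higher, so 1 call among 23 is near the share in the table as a whole. The split of the table's calls depends on centring, with 71.7% of them lower as deposited and 38.0% lower after a shift that makes the groups' summed values equal. The fold change was negative in 20 of the 23 tested members, and in 19 of the 22 without icn, against 50.6% of all tested genes. The median log2 fold change was -0.12 over the members and -0.13 without icn, against -0.00159 over all tested genes. An unadjusted p under 0.05 was found for 6 members, all negative, in a table where 13.0% of genes reached it and 7.62% did so with a negative value.

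Highly read genes and short genes as a whole tilted the same way, in sets that include the members themselves. Among the 609 tested genes with a base mean of at least 5000, 73.9% were negative and the median log2 fold change was -0.07. Among the 267 of them that span at most 10000 bp it was -0.10, with 79.8% negative. Over all 5323 tested genes of at most 10000 bp, at any read level, the median was -0.04 and 63.3% were negative. The 13 members with a base mean of at least 5000 had a median of -0.14, with 12 negative. The 10 tested members below that level had a median of -0.10, with 8 negative, against a median of 0.000649 and 49.8% negative over all 18648 tested genes below it. Those sets differ in span, with medians of 6612 bp and 20016 bp. The members are short, with a median span of 4285 bp against 19648 bp over all tested genes. The part of read level and gene span in the negative tilt of the members was not tested with a set test.

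**Figure D1:**
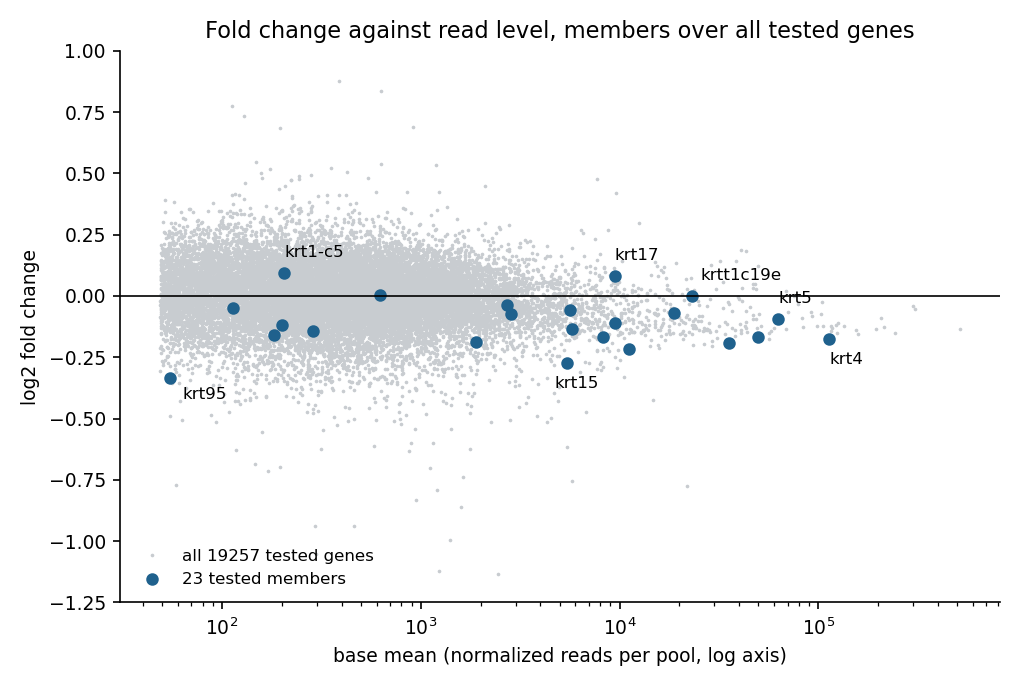
Log2 fold change (vertical axis) against base mean (horizontal log axis) in the authors' deposited table, with the 23 tested members as blue points over all 19257 tested genes in grey. The members lie between -0.34 and 0.09, inside the grey cloud, with 20 of 23 under 0 and the most heavily read ones all at or under 0 from krtt1c19e (base mean 23151) upward.

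The precision of the table limits what could be called. The smallest Wald statistic among called genes was 3.21 in absolute size. At the members' median SE of 0.0944 a log2 fold change of 0.30 was needed for a call, at their lowest SE of 0.0597 (krt5) one of 0.19 and at their highest of 0.124 (krt95) one of 0.40. The 95% intervals included 0 for 18 of the 24 genes, lay below 0 for 6 and lay above 0 for 0. Across the tested members the interval bounds ran from -0.58 to 0.32. For the 22 tested members that were not called, a missed threshold does not show that their level stayed the same.

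**Figure D2:**
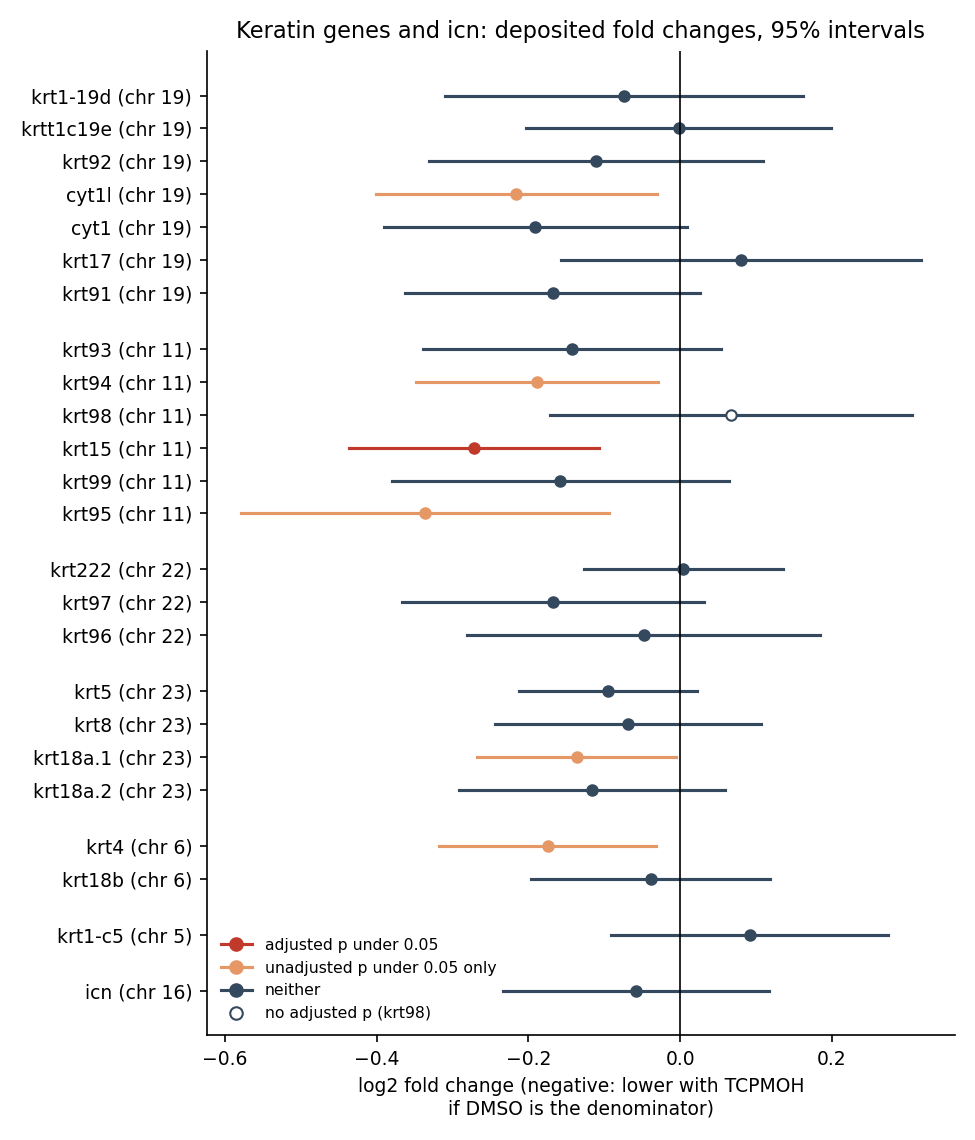
Deposited log2 fold changes (horizontal axis) of the 24 genes with 95% intervals (normal, from the deposited SE), grouped by chromosome and ordered by position. The interval of krt15 runs from -0.44 to -0.11, and 5 others (krt95, krt4, krt94, cyt1l and krt18a.1) also end below 0.

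Type II keratins were few and heavily read among the members, which were chosen by symbol, so keratins without such a symbol are not counted. In the authors' deposited table krt4, a type II keratin of the enveloping layer and the surface epidermis, had a base mean of 113174, rank 17 of the whole table, and on its own took 0.456% of all normalized reads. The authors' deposited table gives it a log2 fold change of -0.17 (p = 0.0168; DESeq2 adjusted p = 0.228, SE 0.0730), a ratio of 0.886, and the gene lies on the minus strand of chromosome 6 from 39308428 to 39313027. The epidermal type II gene krt5, on chromosome 23 from 10173196 to 10177480, had a base mean of 62815 and a log2 fold change of -0.10 (DESeq2 adjusted p = 0.516, SE 0.0597) in the authors' deposited table. Its interval, from -0.21 to 0.02, is the narrowest among the members. The third, krt8, partner of krt18 in simple epithelia, stood at -0.07 (DESeq2 adjusted p = 0.798, SE 0.0897) at a base mean of 18845 in the authors' deposited table, from 10249626 to 10254302 on the same chromosome as krt5. None of the 3 was called, and all 3 were negative.

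A row of 7 type I genes lies side by side on chromosome 19, from 5324653 to 5380770, all on the minus strand and with no other gene of base mean above 0 within those 56.1 kb. They had 0.571% of the table's summed base mean. Their fold changes differed in sign and size, with 6 negative, 1 positive and a median of -0.11, and 0 were called. Both genes named for the enveloping layer were on the negative side. In the authors' deposited table cyt1, named there as the type I cytokeratin of the enveloping layer, stood at -0.19 (p = 0.0618; DESeq2 adjusted p = 0.415, SE 0.102) at a base mean of 35646, from 5362420 to 5364649. Its neighbour cyt1l, named as like cyt1, stood at -0.22 (p = 0.0221; DESeq2 adjusted p = 0.257, SE 0.0944) at a base mean of 11191 in the authors' deposited table, from 5356421 to 5358455. At the end of the row krt91 had a base mean of 49836 and a log2 fold change of -0.17 (DESeq2 adjusted p = 0.482, SE 0.0994) in the authors' deposited table, from 5378563 to 5380770.

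Other genes of the same row were nearer to 0. The promoter of krtt1c19e, called krt1-19e in the reference tables, is known as a driver for basal keratinocytes of the larval skin. The authors' deposited table gives it a log2 fold change of -0.00199 (DESeq2 adjusted p = 0.996, SE 0.102) at a base mean of 23151, from 5339364 to 5345932. The interval, from -0.20 to 0.20, spans the values of cyt1 and krt91 as well as 0. Between cyt1 and krt91 lies krt17, from 5367330 to 5372572, named after a mammalian type I keratin of skin appendages and wounded skin, and it was positive at 0.08 (DESeq2 adjusted p = 0.829, SE 0.121) at a base mean of 9479 in the authors' deposited table. The remaining genes of the row stood at -0.11 (krt92, base mean 9455) and -0.07 (krt1-19d, base mean 2852) in the authors' deposited table. Differences between neighbours in this row were not tested, since a test of 2 genes measured in the same pools needs values per pool. Keratins of such a tandem row resemble one another in sequence, so the assignment of reads to close copies is uncertain.

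**Figure D3:**
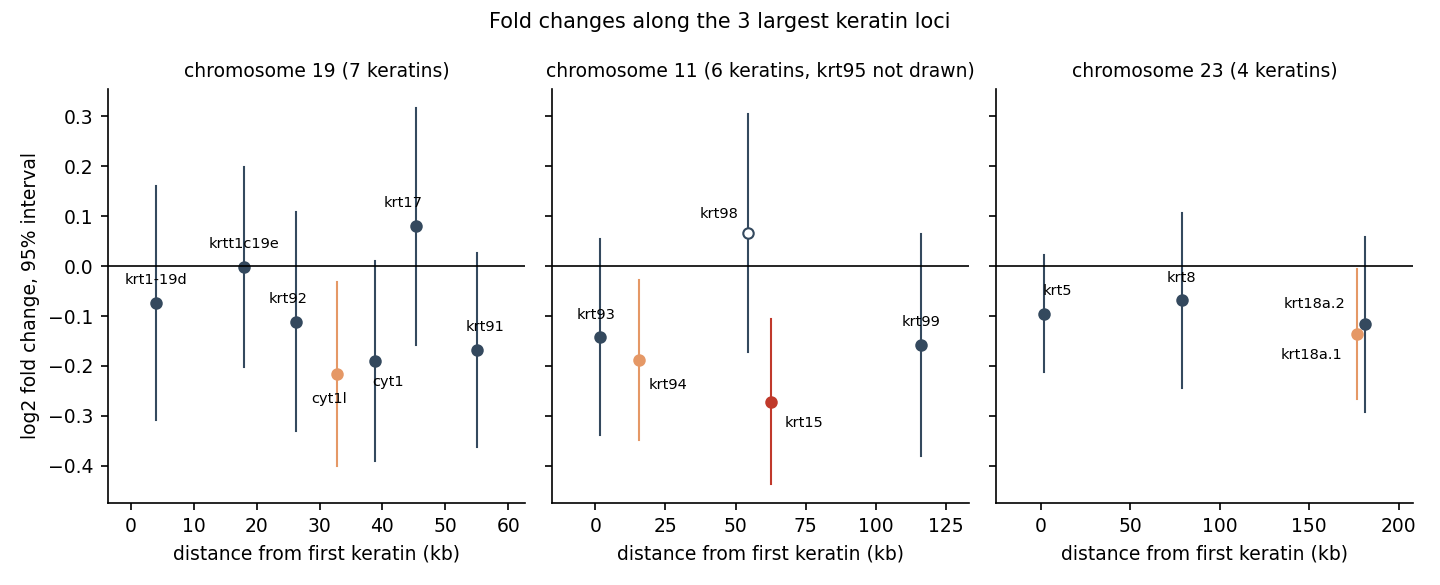
Log2 fold change with 95% interval (vertical axis) of each keratin against its distance in kb from the first keratin of the locus, for chromosomes 19, 11 and 23. Red marks an adjusted p under 0.05 (krt15), orange an unadjusted p under 0.05 only, and the open point (krt98) has no adjusted p; krt95, 613 kb beyond krt99 on chromosome 11, is not drawn. On chromosome 19 the values lie between -0.22 (cyt1l) and 0.08 (krt17), while the 4 tested genes drawn for chromosome 11 are all negative.

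The called gene and the lowest gene both lie on chromosome 11. There, krt93, krt94, krt98, krt15 and krt99 fill 121 kb from 11454545 to 11575070, and krt95 follows 613 kb further on. In the authors' deposited table krt15, named after a mammalian type I keratin of the basal layer of stratified epithelia, was lower at a log2 fold change of -0.27 (p = 0.00126; DESeq2 adjusted p = 0.0474, SE 0.0842). That is a ratio of 0.828, or 1.21-fold lower, at a base mean of 5436, from 11515778 to 11518469 on the minus strand. It ranked 510 among the 516 called genes of the table by p, close to the threshold, and the call is lost under several other settings. Its adjusted p was 0.0781 when adjusted over every gene with a p-value, 0.125 after a shift to equal summed values, 0.128 with the trend with gene span removed and 0.495 under an empirical null (each Wald statistic divided by the spread of all of them, 1.30), all recomputed from the DESeq2 statistics.

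The other tested genes of chromosome 11 were negative and not called. The lowest value of all members was that of krt95, at -0.34 (p = 0.00670; DESeq2 adjusted p = 0.138, SE 0.124) in the authors' deposited table, from 12188120 to 12198914. Its base mean of 54.8 is the smallest among the tested members, and its SE is close to the largest in the table. The deposited fold changes look shrunken toward 0. Undoing the shrinkage inferred from the SE put krt95 at -0.65 and krt15 at -0.31. That correction is largest at an SE such as that of krt95. Its strength was set from the largest SE of all genes, which the SE of krt95 nearly reaches, so the value of -0.65 is unreliable. In the authors' deposited table krt94 stood at -0.19 (p = 0.0209; DESeq2 adjusted p = 0.250, SE 0.0816) at a base mean of 1894, from 11468566 to 11471857. Those of krt99 and krt93 were -0.16 and -0.14 in the authors' deposited table, at base means of 183 and 289. Over the 5 tested genes the median was -0.19, the lowest median of any locus with more than 1 member, and no difference between loci was tested. The only member without an adjusted p, krt98, lies between krt94 and krt15 on the plus strand and stood at 0.07 (SE 0.122; p = 0.580) at a base mean of 21.1 in the authors' deposited table.

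All 6 chromosome 11 genes lie inside the span listed for atp2b2, a calcium pump gene that runs from 1147383 to 23080970 on the minus strand in the authors' deposited table. All of them but krt98 are on that strand, so for those genes reads in any shared exon could have been assigned to neither or to either. The plus strand, where krt98 lies, holds pimr204, whose listed span also covers all 6, at a base mean of 0.481. The log2 fold change of atp2b2 was -0.02 (DESeq2 adjusted p = 0.891, SE 0.0444) at a base mean of 8093 in the authors' deposited table. Between krt99 and krt95 lies jupa, which encodes plakoglobin, a desmosome and adherens junction protein that anchors keratin filaments, at -0.07 (DESeq2 adjusted p = 0.715, SE 0.0690) in the authors' deposited table. Other genes of that interval had both signs, among them cdc6 at 0.21 (DESeq2 adjusted p = 0.346, SE 0.103) and wipf2a at -0.11 (DESeq2 adjusted p = 0.386, SE 0.0547).

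Keratins of simple epithelia lay in the middle of the range. Both copies of krt18a sit next to each other on chromosome 23, at -0.14 for krt18a.1 (p = 0.0407; DESeq2 adjusted p = 0.345, SE 0.0667; base mean 5782) and -0.12 for krt18a.2 (DESeq2 adjusted p = 0.621, SE 0.0893; base mean 200.2) in the authors' deposited table. The copy on chromosome 6, krt18b, which lies near krt4, stood at -0.04 (DESeq2 adjusted p = 0.881, SE 0.0807; base mean 2703) in the authors' deposited table. Both krt18a copies are tandem duplicates, and the split of reads between them is uncertain. Simple epithelial keratins are also made outside the skin, and markers of the enterocytes of the gut moved in the same direction. All 5 enterocyte markers were negative, with a median of -0.26 and a summed base mean of 20502, and 1 of them was called as lower, the apolipoprotein gene apoa4a at -0.41 (DESeq2 adjusted p = 0.0162, SE 0.113) in the authors' deposited table. Under the empirical null apoa4a lost its call (adjusted p = 0.302 from the DESeq2 statistics). The call held narrowly after the shift to equal sums (0.0466) and with the span trend removed (0.0485). The fatty acid binding protein gene fabp2 stood at -0.33 (DESeq2 adjusted p = 0.0563, SE 0.105) and the brush border gene vil1 at -0.26 (DESeq2 adjusted p = 0.218, SE 0.106) in the authors' deposited table. Their part in the values of krt8 and krt18a.1 was not tested, and 0 of the 5 had a base mean of 0.

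The remaining type I genes lie on chromosomes 22 and 5. On chromosome 22, krt97 stood at -0.17 (DESeq2 adjusted p = 0.498, SE 0.102; base mean 8290), krt96 at -0.05 (base mean 113) and krt222 at 0.00423 (DESeq2 adjusted p = 0.986, SE 0.0670; base mean 627) in the authors' deposited table. The span of krt96 overlaps that of ptpn4b on the other strand. The highest value of all members was that of krt1-c5 on chromosome 5, from 64867110 to 64883111, at 0.09 (p = 0.324; DESeq2 adjusted p = 0.725, SE 0.0930; base mean 206) in the authors' deposited table. Its span overlaps kat5b, which is listed on the same strand. The S100 gene icn, on chromosome 16 from 23431189 to 23432552, stood at -0.06 (DESeq2 adjusted p = 0.831, SE 0.0893; base mean 5644) in the authors' deposited table, nearer to 0 than the median of the keratins.

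Type I and type II genes had medians that lay close together, a difference that was not tested. The 19 tested type I keratins had a median of -0.14, with 16 negative, and the 3 type II keratins one of -0.10, with 3 negative. Together the 24 genes made up 1.48% of the table's summed base mean, and the 6 with the highest base means (krt4, krt5, krt91, cyt1, krtt1c19e and krt8) held 82.5% of their sum. These are read counts that are not corrected for transcript length, so they rank genes by reads and not by molecules. With each gene's reads divided between the groups by its deposited fold change, summed reads of TCPMOH over DMSO had a log2 ratio of -0.13 for the 20 type I keratins, -0.14 for the 3 type II keratins and -0.05 for the whole table. These ratios carry no error, since values per pool are needed for one.

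**Figure D4:**
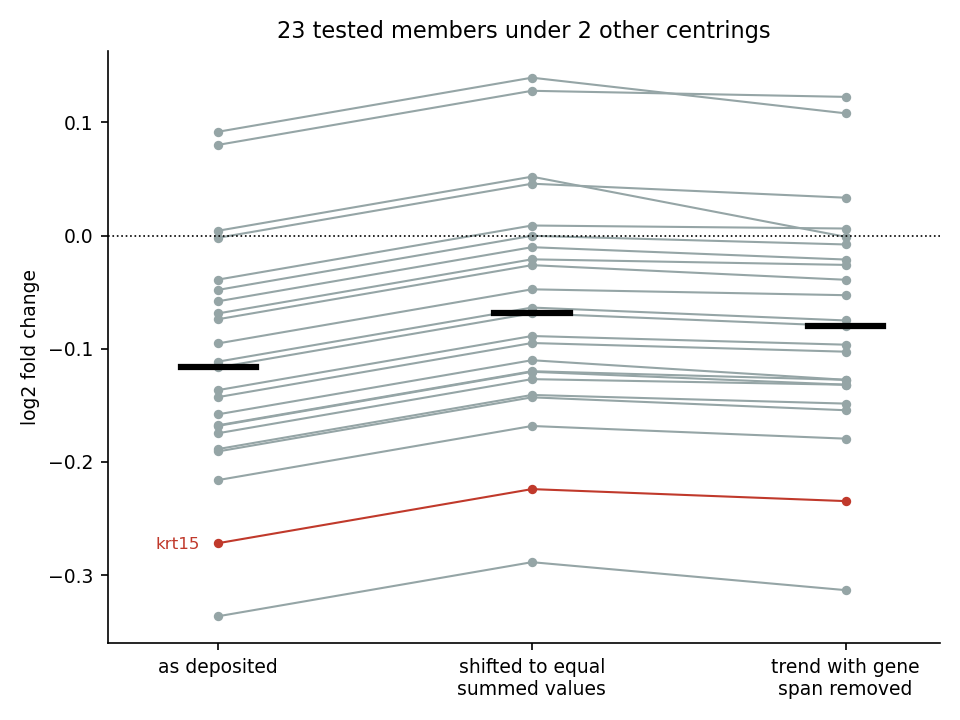
Log2 fold changes (vertical axis) of the 23 tested members as deposited, after a shift that makes the summed values of the groups equal, and with the trend with gene span removed. Each line is 1 gene, krt15 in red, and black bars are medians, at -0.12, -0.07 and -0.08.

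The size of the tilt depends on how fold changes are centred. After a shift of 0.05 that makes the summed values of both groups equal, the median of the members was -0.07 with 18 of 23 negative, while that of all tested genes was 0.05. With the trend with gene span removed the members' median was -0.08, with 19 negative. No member was called under either setting by the recomputed DESeq2 statistics.

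Genes that anchor keratin filaments and the listed epidermis markers were mostly positive, while epidermal transcription factors had both signs. All 11 epidermis markers outside the keratins were detected, which in whole animals does not show which tissue the members' reads come from. Of the 11 markers 2 were negative, cldnb and grhl3 (-0.12). The median of the 11 was 0.05 and 0 were called. Among them the basal layer regulator tp63 stood at 0.21 (DESeq2 adjusted p = 0.162, SE 0.0812), the basal hemidesmosome collagen gene col17a1b at 0.27 (DESeq2 adjusted p = 0.0575, SE 0.0844) and the tight junction gene cldnb at -0.19 (DESeq2 adjusted p = 0.339, SE 0.0899) in the authors' deposited table. The epithelial adhesion genes cdh1 and epcam stood at 0.09 and 0.03, and the periderm plakin genes evpla and ppl at 0.05 each, in the authors' deposited table. The collagen gene col17a1a stood at 0.05 at a base mean of 9096, against 626 for col17a1b. Outside this list the envoplakin gene evplb stood at -0.09 at a base mean of 4062, against 936 for evpla. The 11 markers span more of the genome than keratins do, with a median of 22207 bp. With the span trend removed their median was still 0.05. After the shift to equal summed values the median was 0.09 and 2 were called as higher, col17a1b and tp63 (adjusted p = 0.0134 and 0.0472 from the DESeq2 statistics). That shift raised the calls as higher over all 19257 tested genes from 146 to 355, and the median of all tested genes to 0.05. Each of the 11 markers is also counted in the desmosome, hemidesmosome, junction or transcription factor list below. The lists therefore share genes, and their medians are not independent.

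Hemidesmosome and basement membrane anchor genes, which fix the basal layer to the matrix below it, had the highest median of the 13 lists described beside the keratins as deposited, and with the span trend removed the actinotrichia genes of the fin fold stood above them (0.15 against 0.10). Of 18 tested 4 were negative, the median was 0.15, and 1 was called as higher, the laminin receptor gene itga6b at 0.23 (DESeq2 adjusted p = 0.0354, SE 0.0684) in the authors' deposited table. Its partner gene itgb4 stood at 0.29 (DESeq2 adjusted p = 0.124, SE 0.105) and itga3b at 0.26 (DESeq2 adjusted p = 0.133, SE 0.0960) in the authors' deposited table. The plectin genes pleca and plecb, whose product links keratin filaments to hemidesmosomes, stood at 0.16 and 0.20 in the authors' deposited table, with DESeq2 adjusted p = 0.521 and 0.317. The 4 negative genes were itga6a at -0.05, itga6l at -0.03, lamb1b at -0.02 and lama3 at -0.00651 in the authors' deposited table. Genes of this list are long, with a median span of 64164 bp. With the span trend removed the list's median was 0.10 and itga6b lost its call (adjusted p = 0.0738 from the DESeq2 statistics), as it did under the empirical null (0.432). The shift to equal sums gave 4 called genes, col17a1b again among them, and raised the calls as higher in the whole table from 146 to 355.

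Desmosome and plakin genes had a median of 0.06, with 3 of 14 negative and 0 called. In the authors' deposited table dsc2l, a desmosomal cadherin gene, stood at 0.18 (DESeq2 adjusted p = 0.363, SE 0.0900), and dspa, which encodes the desmoplakin that binds keratin filaments, at 0.06. The plakophilin gene pkp3b and the plakoglobin gene jupb stood at 0.09 and 0.10 in the authors' deposited table. The 3 negative genes were evplb at -0.09, jupa at -0.07 and perp at -0.01. Skin junction genes had a median of 0.02, with 4 of 15 negative and 0 called. The claudin genes cldn7a and cldn1, which encode tight junction proteins, stood at -0.17 and -0.18 in the authors' deposited table, beside cldnb. Epidermal transcription factors had a median of -0.00838, with 9 of 16 negative and 0 called. Beside tp63 the smallest p-values among them belonged to ovol1a at -0.21 (DESeq2 adjusted p = 0.337, SE 0.0992) and grhl3, a regulator of the surface layer, at -0.12 (DESeq2 adjusted p = 0.587, SE 0.0874) in the authors' deposited table. Intermediate filament genes outside the keratins, among them vim, desma, gfap and the neurofilament and lamin genes, had a median of -0.01 with 10 of 19 negative, and 0 were called. The lowest p-values there were those of nefla at -0.13, desma at -0.09 and neflb at -0.10 in the authors' deposited table, with DESeq2 adjusted p = 0.428, 0.447 and 0.560. In the DESeq2 test the unadjusted p was under 0.05 for 1 of 14 desmosome genes, 1 of 15 junction genes and 2 of 16 transcription factor genes. The same held for 0 of the 19 other filament genes, 6 of the 18 hemidesmosome genes and 3 of the 11 epidermis markers. Over all tested genes the share was 13.0%. The difference between the members and each of these lists was not tested.

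**Figure D5:**
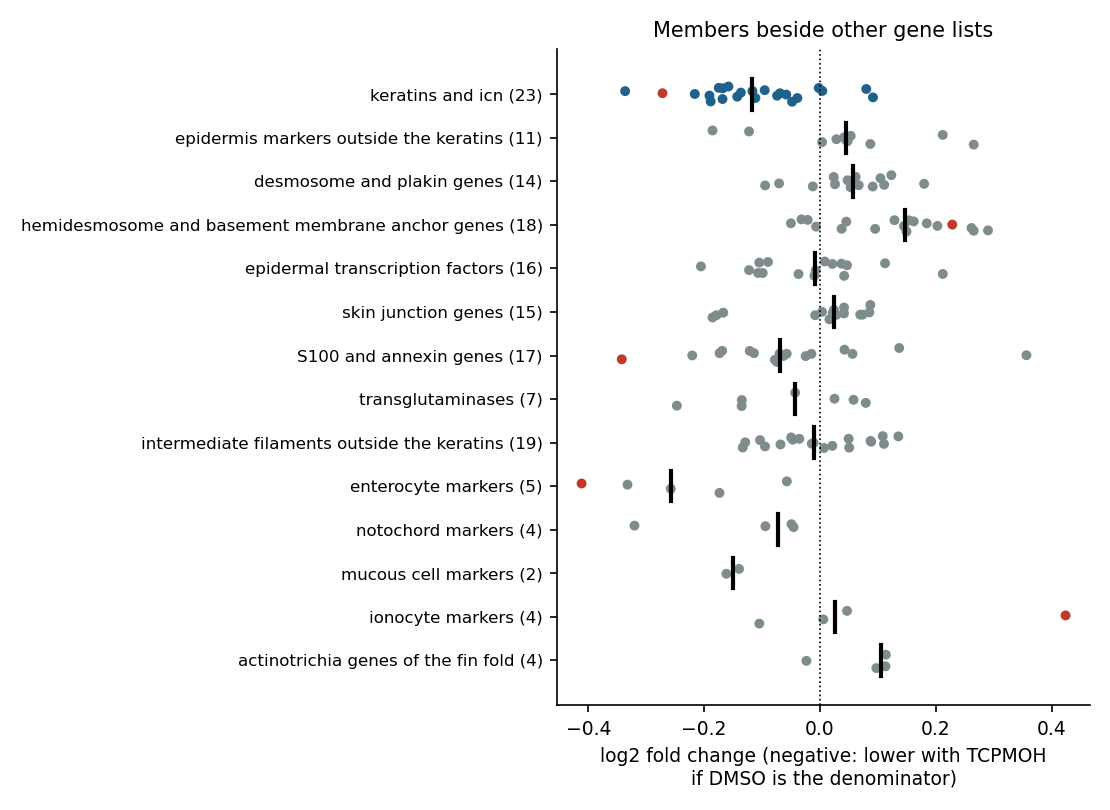
Log2 fold changes (horizontal axis) of the tested members and of 13 other gene lists, 1 point per gene, with the number tested after each name. Genes that belong to more than 1 list are drawn in each. Red points have an adjusted p under 0.05, black bars are medians, and points are spread vertically only to separate them. The members' median is -0.12, that of the hemidesmosome list 0.15 and that of the enterocyte markers -0.26.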

How the data were processed

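Messenger RNA libraries were made with a stranded kit, per the labels' protocols. The submitters' processing notes name STAR, featureCounts, cutadapt, FastQC and DESeq2 and give no versions. Per the file headers, gene models are of GTF version 4.3.2, beside gene identifiers of Ensembl release 99. Coordinates are printed as deposited, and their build is not stated in those headers. The deposited base mean is a signal, the mean of normalized counts. The deposited fold change and SE are log2 values, the deposited Wald statistic is a score equal to their ratio, and the p-value and adjusted p-value are those the authors deposited. Columns for single samples number 0, so the depth per library is unknown and no count model was run. Recomputing the adjustment over 19257 genes gave values within 5.17e-06 of the deposited ones.

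Deposited fold changes appear shrunken toward 0. No SE exceeded 0.124, which corresponds to a prior standard deviation of 0.248, so printed folds may understate changes. Intervals are 95% normal intervals from the SE. All 24 genes matched both reference name tables. Companion lists and the genes named follow set rules: every member is accounted for, with full statistics for called members, the 6 most read, the 3 highest, the 3 lowest and icn, and with called members and those of smallest p from each list. Genes given beyond these rules, among them cdh1, epcam, evpla, evplb, ppl, perp, pleca, plecb, itga3b, col17a1a, dspa, jupa, and4 and icn2, were chosen after their values were seen. Members and lists were chosen with earlier results of these data known. Alternatives were other adjustments, thresholds (0.10 and 0.01), centrings, the span trend (running median over 1001 genes), the empirical null and other member filters. Scripts were tested on simulated data. Software was matplotlib 3.10.9, scipy 1.17.1, numpy 2.4.6 and pandas 2.3.3 under Python 3.11.15.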

Additional observations from a re-analysis of the deposited data

How the results depend on the processing

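At a threshold of 0.10, without icn and with other choices of row per symbol, 1 member was called. These settings could not lose that call. A looser threshold keeps every call, icn was not called, and every symbol had 1 entry. The count of called members was 1 as deposited and after centring on a median of 0. It was 0 after the shift to equal sums, under the empirical null, with the span trend removed, when adjusted over every gene with a p and at a threshold of 0.01. In all, 516 genes were called as deposited, 121 under the empirical null and 275 at 0.01, and the share of calls that were negative was 71.7% as deposited and 38.0% after the shift to equal sums. Most settings could not turn the sign of the members' median. Undoing the inferred shrinkage, which gave -0.15, rescales each value and keeps its sign. The choice of row changes nothing, and centring on a median of 0 moves values by only 0.00159. With 20 of 23 tested members negative, leaving out icn and the other member filters could not turn it either. The larger corrections, for equal sums and for gene span, left the members' median negative, at -0.07 and -0.08. Values near 0 changed sign: after the shift to equal sums krtt1c19e stood at 0.0458 and krt18b at 0.00884, and with the span trend removed krtt1c19e stood at 0.0334, krt18b at 0.00618 and krt222 at -0.00117. The shift to equal sums adds 0.0477 to every log2 fold change, so a negative value smaller in size than that must change sign. The span setting removes the running median at each gene's span, so a value near 0 can also change sign. No paired analysis was possible because the table holds no values per pool, and leaving out libraries and other count models were not run for the same reason.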

Other observations

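The S100 family of icn and the annexins, calcium-binding partners of epithelial membranes, went in both directions. Of 17 tested genes 13 were negative, the median was -0.07, and 1 was called as lower, s100w at -0.34 (DESeq2 adjusted p = 0.0103, SE 0.0902) in the authors' deposited table. Its call held with summed values made equal (adjusted p = 0.0424 from the DESeq2 statistics) and with the span trend removed (0.0339), and was lost under the empirical null (0.242). The annexin gene anxa2b stood at -0.17 (DESeq2 adjusted p = 0.402, SE 0.0910) in the authors' deposited table. The paralog of icn, icn2, stood at -0.17 (DESeq2 adjusted p = 0.450, SE 0.0954), and s100a11 at 0.36 (DESeq2 adjusted p = 0.0803, SE 0.119), in the authors' deposited table. Not called as deposited, s100a11 was called as higher with summed values made equal (adjusted p = 0.0317 from the DESeq2 statistics). The same held with the span trend removed (0.0392), but not under the empirical null (0.623). The transglutaminases, which cross-link proteins of the cell envelope in mammalian skin, had a median of -0.04 with 4 of 7 negative and 0 called, and 1 had an unadjusted p under 0.05 in the DESeq2 test, tgm1l4 at -0.25, while tgm2a stood at -0.13 and tgm2b at 0.08.

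Other cells of the skin and trunk also differed in sign. The 2 tested mucous cell markers, agr2 and muc5.1, stood at -0.14 and -0.16 in the authors' deposited table, not called. Of 4 ionocyte markers 1 was negative and 1 was called as higher, the calcium channel gene trpv6 at 0.42 (DESeq2 adjusted p = 0.00851, SE 0.110) in the authors' deposited table. Its call held with summed values made equal (adjusted p = 0.00218 from the DESeq2 statistics) and with the span trend removed (0.0102). Under the empirical null it was lost (0.223). The ionocyte regulator genes foxi3a and foxi3b stood at -0.10 and 0.05 in the authors' deposited table. The actinotrichia genes and1, and2 and and3, which encode proteins of the fin fold, stood at 0.11, 0.10 and 0.11 in the authors' deposited table, not called. The remaining gene of that list, and4, stood at -0.02, not called, and the median with it was 0.11. All 4 notochord markers were negative, with a median of -0.07 and 0 called, and the lowest was tbxta at -0.32 (DESeq2 adjusted p = 0.106, SE 0.112) in the authors' deposited table. The genes col9a1b and epyc stood at -0.09 and -0.05 in the authors' deposited table.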
